A study of Ovis aries with 18 samples.

Results

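The mRNA of testes from rams of 6 and 12 months was compared, with 3 libraries at each age. These 6 libraries are part of a series of 18, which also holds mRNA of 2-month-old testes and miRNA of all 3 ages. Each library came from the left testis of a different Small Tail Han ram, a Chinese sheep breed known for early puberty and high fecundity. The testis was taken by surgery and frozen, and poly(A) RNA of the tissue inside it was sequenced on the Ion platform. No treatment is named in the labels or the methods, and the labels name no difference between the groups other than age. The counts cover whole tissue, so each value is a sum over all cell types of the testis.

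The mRNAs described here are those whose 3 libraries of 6 months and 3 libraries of 12 months did not overlap after scaling. Levels are given in CPM (counts per 1000000 counts) after TMM scaling, a correction for libraries in which a few genes take many reads. An mRNA was set apart when its highest 12-month value was over 4-fold above the other 12-month values, because such a difference rests on 1 ram. Of 19233 mRNA genes in the table, 14921 had enough counts to be compared. Of these, 1038 lay higher in all 12-month libraries and 838 lay lower.

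The testis has 2 tasks that meet in this age range. Sertoli cells inside the tubules nurse germ cells through meiosis and the shaping of sperm, and Leydig cells between the tubules turn cholesterol into testosterone under luteinising hormone. Peritubular myoid cells, vessels, macrophages and matrix form the frame around both. Haploid germ cells carry very abundant mRNAs for the acrosome, the tail and the packing of sperm chromatin, so their share in a sample affects the CPM of every other gene.

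The libraries held 8657609 to 10937143 counts on mRNA genes. A level of 3 counts, taken as the smallest that can be told from 0, was between 0.229 and 0.373 CPM, a limit that covers counting error only. The 12-month libraries were unlike each other. In 12-month replicate 3 the mRNAs of late germ cells were nearly missing. A list of 15 genes of elongating spermatids summed to 278 CPM there. It is called the chromatin list here, though some members, such as SMCP, are not chromatin genes. The other 12-month libraries had 10516 and 9859 CPM of it, and those of 6 months 10341, 17089 and 10616 CPM. The transition protein gene TNP1 stood at 2.06 CPM in 12-month replicate 3, with 733 to 1479 CPM in the other 5 libraries. In 12-month replicate 1, 14 smooth muscle genes summed to 8492 CPM, against 991 and 2018 CPM in the other 12-month libraries and 535 to 964 CPM at 6 months. In the same library 8 genes of duct epithelium summed to 1066 CPM, against 146 to 215 CPM in the other 5, and the keratin KRT8 reached 221 CPM against 0.791 to 3.59 CPM. The water channel AQP9 had 5347 counts there and at most 1 in any other library of the 3 ages. The log2 CPM of 12-month replicate 2 had a correlation across genes of 0.963 to 0.970 with the 6-month libraries, and that of replicates 1 and 3 of 0.877 to 0.901 and 0.613 to 0.705. The closest library to 12-month replicate 3 was 2-month replicate 2, at 0.971, while 2-month replicate 1 had 0.965 to 0.975 with the 6-month libraries and full late germ cell mRNAs. The contents of 12-month replicate 3 and 2-month replicate 1 therefore stand against the ages on their labels, and whether these labels are right was not tested. The labels were kept, so each value of 12 months below includes a library in doubt. Without it, 1291 mRNAs were non-overlapping and higher and 1234 lower, a larger number because fewer libraries overlap less. Markers of meiosis were present in every library, among them SYCP1, SYCP2 and SYCP3, at 8.15 CPM or more. PRM1 and PRM2, the protamines of sperm, were not among the rows analysed here.

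**Figure D1:**
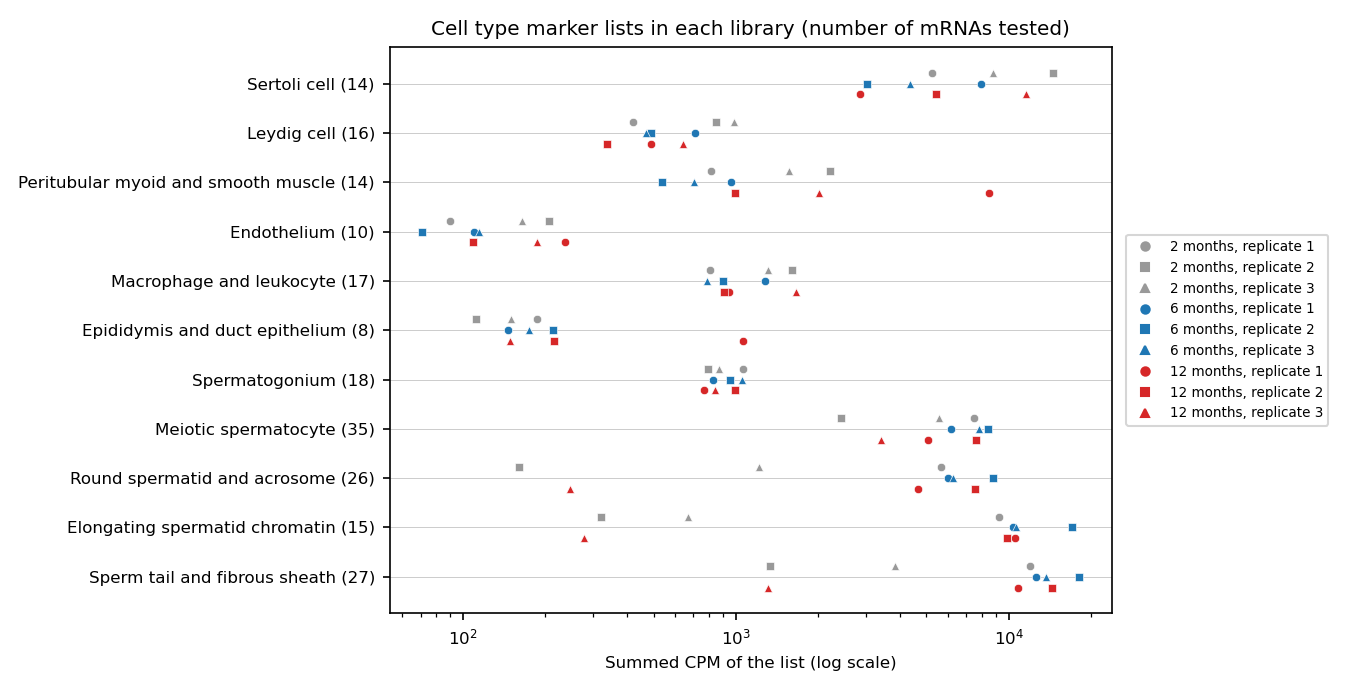
Summed CPM (log axis) of 11 cell type marker lists in each of the 9 mRNA libraries, with age by colour, replicate by marker shape and the number of mRNAs tested in brackets. In 12-month replicate 3 the acrosome list stands at 248 CPM and the chromatin list at 278 CPM, far below every 6-month library, and 12-month replicate 1 stands apart in the smooth muscle list at 8492 CPM.

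No mRNA was called different between 6 and 12 months by edgeR's quasi-likelihood test (0 of 14921, 0%), at a Benjamini-Hochberg adjusted p under 0.05 and a fold change over 1.5. The smallest adjusted p of that test was 0.710. An unadjusted p under 0.05 was found for 919 mRNAs (6.16%) that were higher and 106 (0.71%) that were lower at 12 months. In 687 of the 919, 12-month replicate 1 was the highest of the 6 libraries. DESeq2's Wald test called 3 mRNAs of 14687 with an adjusted p (0.0204%), which were ELN, SCIN and STAR, and limma called 0 with a smallest adjusted p of 0.742. All statements below of higher and lower levels are therefore descriptions of these 6 rams.

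The 1038 non-overlapping mRNAs that were higher made up 6.96% of those tested, after 59 others were set apart, 58 of which were raised in 12-month replicate 1. The 838 that were lower made up 5.62%. Their median log2 fold changes were 0.81 and -0.80. The ages were mostly close. The distance between the nearest libraries of both ages, called the gap here, had a median of 0.14 on the log2 scale for the higher mRNAs and 0.11 for the lower. It exceeded 1 in 14 higher and 8 lower mRNAs. The 12-month library nearest to the 6-month ones was replicate 2 for 757 of the higher mRNAs (72.9%) and for 522 of the lower (62.3%). Replicate 3 was the farthest for 664 of the lower mRNAs. At the limit for setting apart, TRIB1 stood just inside with 21.4, 4.84 and 5.50 CPM at 12 months, and DSG2 just outside with 56.3, 6.56 and 13.5 CPM. With the smallest gap, DHX15 reached 119.97 CPM in the highest 6-month library and 119.98 CPM in the lowest 12-month library.

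Elastin had the widest gap among the mRNAs that were higher at 12 months. ELN, which encodes the elastic fibre protein of vessels and connective tissue, had 18.9, 8.59 and 14.8 CPM at 6 months and 146, 86.7 and 168 CPM at 12 months. The lowest 12-month library, replicate 2, was over 4 times the highest 6-month library. On the log2 scale the ages differed by 3.24 ± 0.712 (SE), with an adjusted p of 0.710 in edgeR's quasi-likelihood test. Leaving out any 1 ram gave 3.04 to 3.63. DESeq2's Wald test gave ELN an adjusted p of 0.0185, and in 15 other fits of edgeR and limma it lay between 0.252 and 1.

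SCIN, an actin-severing protein of the gelsolin family, had 2.17, 1.13 and 1.39 CPM at 6 months and 26.0, 5.37 and 12.1 CPM at 12 months. All 12-month libraries lay above all 6-month ones, as the choice requires, with the largest value in replicate 1. The difference was 3.2 ± 0.627 (log2, SE), and 1.77 with replicate 2 as the only 12-month library. DESeq2's adjusted p was 0.00602, against 0.252 to 1 in the same other fits. KCNMB1, a subunit of the large potassium channel of smooth muscle, went from 3.83, 3.62 and 3.58 CPM to 26.1, 7.42 and 15.4 CPM. At 12 months it followed the same order of libraries as SCIN, and the smooth muscle list was also highest in replicate 1, then replicate 3. The part of smooth muscle in these values was not tested.

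Other mRNAs were tighter within each age. SOD1, the cytosolic superoxide dismutase, had 22.8, 21.3 and 21.0 CPM at 6 months and 56.4, 45.2 and 55.0 CPM at 12 months, means of 21.7 ± 0.954 and 52.2 ± 6.08 CPM (SD, n = 3). RAB9A, a small GTPase of traffic from late endosomes to the Golgi, had 4.56, 4.18 and 4.16 CPM and then 14.0, 10.6 and 11.9 CPM. SOD1 and RAB9A were on average 2.41 and 2.84 times as high at 12 months. Their log2 fold changes were 1.27 ± 0.298 and 1.5 ± 0.356 (SE), with an adjusted p of 0.710 each in edgeR's quasi-likelihood test.

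ITIH4, a heavy chain of the inter-alpha-trypsin inhibitor family, had 2.69, 2.83 and 3.0 CPM and then 10.4, 6.99 and 7.56 CPM. LAGE3, a subunit of a tRNA-modifying complex, had 2.38, 1.02 and 1.62 CPM and then 5.64, 4.73 and 5.12 CPM. SETD6, a lysine methyltransferase, had 20.3, 16.8 and 16.5 CPM and then 41.5, 38.0 and 81.6 CPM. That all 12-month libraries lay on the same side follows from the choice of these mRNAs. SETD6 was highest in 12-month replicate 3, and its log2 fold change was 1.59 with all rams and 1.15 without that library. CTGF, a secreted regulator of matrix production, had 12.6, 5.65 and 13.3 CPM at 6 months and 42.8, 23.1 and 47.3 CPM at 12 months. SCUBE2, a secreted protein that helps release hedgehog ligands, had 16.6, 13.6 and 15.8 CPM and then 60.9, 30.2 and 79.2 CPM. The 15 widest gaps also held PRSS53, SP140L, TMEM130, WFIKKN2 and MAP9, with log2 fold changes of 1.18 to 2.44.

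**Figure D2:**
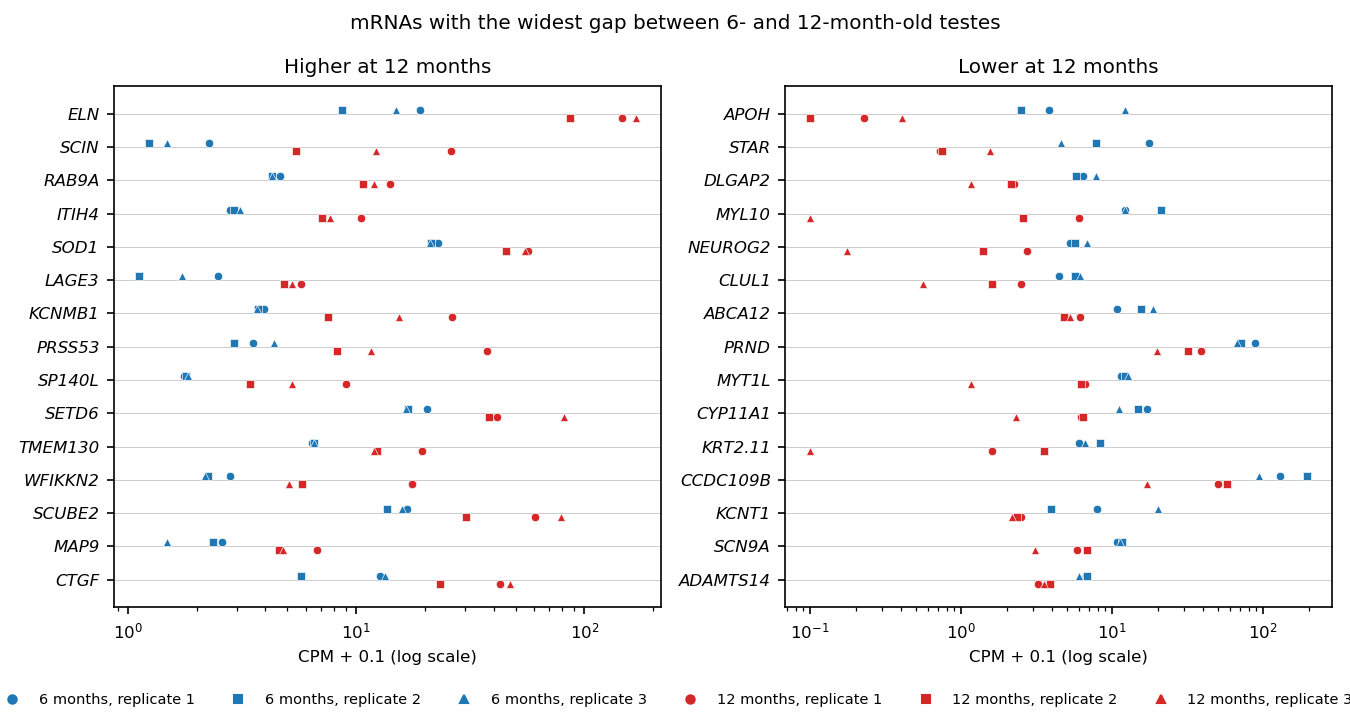
CPM plus 0.1 (log axis) of the 15 mRNAs with the widest gap in each direction, each point a library of 6 months (blue) or 12 months (red). For ELN the 3 red points lie at 86.7 to 168 CPM and the blue at 8.59 to 18.9 CPM, and for STAR the red points lie at 0.627 to 1.45 CPM and the blue at 4.50 to 17.4 CPM.

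Among the mRNAs that were lower at 12 months, APOH had the widest gap. This apolipoprotein, mostly a product of the liver, had 36, 21 and 105 counts at 6 months and 1, 0 and 4 counts at 12 months. In CPM these were 3.73, 2.37 and 12.1 against 0.125, 0 and 0.306, so that 12-month replicates 1 and 2 were under the smallest detectable level of 3 counts. No fold change is given for it.

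Several mRNAs with a wide gap reached their lowest values in 12-month replicate 3, the library with few late germ cell mRNAs. MYL10, a myosin light chain, had 12.0, 20.8 and 12.1 CPM at 6 months and 5.89, 2.47 and 0 CPM at 12 months. NEUROG2, a transcription factor of the nervous system, had 5.18, 5.54 and 6.70 CPM and then 2.63, 1.29 and 0.0764 CPM. MYT1L, likewise neural, had 11.3, 12.1 and 12.6 CPM and then 6.52, 6.13 and 1.07 CPM. Replicates 1 and 2 also lay below 6 months in all of them, which follows from the choice of these mRNAs. The keratin row KRT2.11 and CLUL1 were lowest in replicate 3 too. Without replicate 3 the log2 fold change of MYL10 was -1.84 in place of -2.45, that of NEUROG2 -1.57 in place of -2.15 and that of MYT1L -0.92 in place of -1.40. The part of late germ cells in these values was not tested.

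ABCA12, a lipid transporter, had 10.7, 15.4 and 18.5 CPM and then 6.02, 4.73 and 5.12 CPM. The postsynaptic scaffold gene DLGAP2 had 6.31, 5.65 and 7.74 CPM and then 2.13, 2.04 and 1.07 CPM. KCNT1, a sodium-activated potassium channel, had 7.87, 3.84 and 20.0 CPM and then 2.38, 2.26 and 2.06 CPM, a tight 12-month group beside a wide 6-month one. PRND, which encodes the prion-like protein doppel of the male genital tract, had 88.1, 71.5 and 67.1 CPM and then 38.5, 31.6 and 19.8 CPM, means of 75.5 ± 11.1 and 30.0 ± 9.46 CPM (SD, n = 3). The log2 fold changes of ABCA12, DLGAP2, KCNT1 and PRND were -1.49, -1.91, -2.24 and -1.34, and -1.46, -1.65, -2.18 and -1.11 without 12-month replicate 3. That of KCNT1 was -1.30 without 6-month replicate 3, its highest library. CCDC109B, now called MCUB, an inhibitory subunit of the mitochondrial calcium uniporter, had 129.8, 195 and 94.0 CPM and then 49.9, 57.9 and 16.8 CPM, a log2 fold change of -1.75 that was -1.37 without 12-month replicate 3. SCN9A and ADAMTS14 had the smallest log2 fold changes of the 15, at -1.12 and -0.89.

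The steroid pathway of Leydig cells held 3 mRNAs that were lower at 12 months. STAR, which carries cholesterol into the mitochondrion and is the regulated step of steroid synthesis, had 17.4, 7.69 and 4.50 CPM at 6 months and 0.627, 0.645 and 1.45 CPM at 12 months. The 12-month values came from 5, 6 and 19 counts, and the mean at 6 months was 10.9 times that at 12 months. This was a log2 difference of -3.40 ± 0.659 (SE), with an adjusted p of 0.710 in edgeR's quasi-likelihood test, and -3.93 to -2.71 when any 1 ram was left out. DESeq2's adjusted p was 0.00602, against 0.252 to 1 in the other fits. Since the tissue was measured whole, fewer cells of a type and less RNA per cell cannot be told apart, here and in every result below.

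CYP11A1, the side-chain cleavage enzyme that makes pregnenolone, had 16.9, 14.8 and 11.0 CPM at 6 months and 6.14, 6.34 and 2.21 CPM at 12 months, which is -1.54 ± 0.470 (SE) on the log2 scale. CYP17A1, which carries the pathway on to androgens, had 135, 99.2 and 82.0 CPM and then 24.4, 43.7 and 61.3 CPM, or -1.29 ± 0.465 (SE) on that scale. The adjusted p of edgeR's quasi-likelihood test was 0.710 for both. CYP17A1 overlapped between the ages under upper-quartile scaling and with library size only, while STAR and CYP11A1 did not overlap under any of 4 scalings.

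The rest of the pathway did not follow these 3. HSD3B1 had 7.66, 7.69 and 8.43 CPM and then 2.88, 8.71 and 10.6 CPM, and HSD17B3, the last step to testosterone, had 46.3, 31.5 and 32.7 CPM and then 15.4, 47.9 and 54.2 CPM. Both overlapped, with log2 fold changes of -0.09 and 0.09. The receptor of luteinising hormone, LHCGR, had 4.04, 3.73 and 3.23 CPM at 6 months and 0.376, 0.537 and 6.49 CPM at 12 months. The Leydig cell hormone INSL3 had 290.2, 159 and 147 CPM and then 39.4, 34.3 and 276 CPM. Both were far lower in 12-month replicates 1 and 2 and high in replicate 3, so the ages overlapped. Without replicate 3 the log2 fold changes were -2.96 for LHCGR and -2.43 for INSL3. POR, the electron donor of microsomal P450 enzymes, lay higher at 12 months, with 61.3, 54.6 and 65.1 CPM and then 135, 73.9 and 74.2 CPM. IGFBP3, which binds insulin-like growth factors, was also higher, and IGF1 was set apart because of 12-month replicate 1. In all, 2 of the 16 Leydig cell mRNAs tested were non-overlapping and higher (12.5%, against 6.96% of all mRNAs) and 3 were lower (18.8%, against 5.62%), and the summed level of the list was 470.0 to 709 CPM at 6 months and 337 to 638 CPM at 12 months.

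The 2-month libraries, which shared the scaling and the filter but were not compared in the choice, had 7.82, 6.85 and 15.6 CPM of STAR, above every 12-month library. For CYP11A1 they had 7.61, 16.0 and 12.8 CPM and for CYP17A1 64.7, 162 and 170.5 CPM. In both, too, all 2-month libraries lay above the highest 12-month library.

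**Figure D3:**
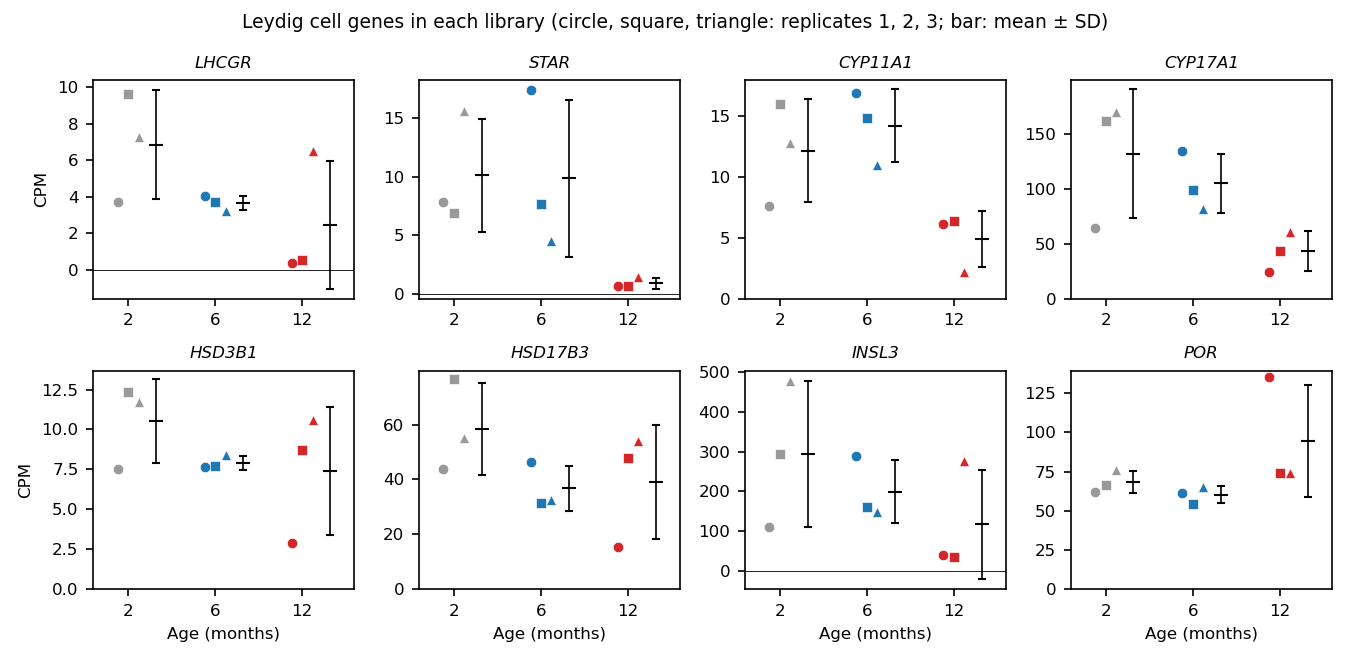
CPM of 8 Leydig cell genes by age in months, with a point for each library (circle, square and triangle for replicates 1, 2 and 3) and the mean with SD beside them (n = 3). STAR, CYP11A1 and CYP17A1 are lower in all 12-month libraries than in all of 6 months, while LHCGR and INSL3 are low at 12 months in replicates 1 and 2 and high in replicate 3 at 6.49 and 276 CPM.

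Collagens, laminins and elastic fibres build the extracellular matrix around tubules and vessels. In the chosen list of such genes all log2 fold changes were above 0. Of 29 tested, 9 were non-overlapping and higher (31.0%, against 6.96% of all mRNAs) and 0 were lower, and the sign was the same in 29 of 29. The median was 1.06, beside 0.05 over all mRNAs tested. Of 32 collagen chains taken by symbol, a list that shares genes with this one, 22 lay above 0 and 10 below. COL1A1, the main fibrillar collagen chain, had 222, 127 and 148 CPM at 6 months and 2169, 344 and 881 CPM at 12 months. MMP2, a collagen-degrading protease, had 24.4, 30.2 and 23.0 CPM and then 148, 35.8 and 83.2 CPM. FBN1, the microfibril protein fibrillin, had 29.5, 13.8 and 26.2 CPM and then 105, 37.5 and 73.0 CPM. In all 3, replicate 1 was the highest and replicate 2 nearest to the 6-month libraries.

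The other non-overlapping matrix mRNAs were ELN, the elastic fibre protein FBLN5, the proteoglycan BGN, and the basement membrane genes LAMA4, LAMB1 and NID1. LAMA4 stood out by its even 12-month levels of 47.1, 49.5 and 49.5 CPM, against 40.9, 28.4 and 19.1 CPM at 6 months. Of the 29 mRNAs, 20 were highest in 12-month replicate 1, the library with raised smooth muscle and duct genes. With replicate 2 as the only 12-month library, the list's median log2 fold change was 0.16. In that library, with the main scaling, 10 of the 29 lay above all 6-month libraries and 5 below. Over all mRNAs 3357 lay above and 3216 below of 15395, in a fit with its own scaling and filter. The 10 include the 9 counted as higher, which lie above by the rule.

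Genes induced by interferon encode antiviral effectors. Of 23 tested, 9 were non-overlapping and higher (39.1%, against 6.96% of all mRNAs), 1 was lower (4.35%, against 5.62%) and the rest overlapped, with a median log2 fold change of 0.94. OAS2, a sensor of double-stranded RNA, had 25.3, 6.44 and 9.82 CPM at 6 months and 50.9, 42.6 and 38.0 CPM at 12 months. MX1, a dynamin-like antiviral GTPase, had 13.7, 3.96 and 6.81 CPM and then 21.6, 20.2 and 29.8 CPM. RSAD2, also called viperin, had 12, 3 and 6 counts and then 28, 28 and 52, or 1.24, 0.339 and 0.693 CPM and then 3.51, 3.01 and 3.97 CPM.

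In these 3 genes the 12-month rams resembled each other more than the 6-month rams did, and 6-month replicate 1 was the highest of its age. The others were IFIT1, IFIT3, OAS1, IFI44, IFI44L and HERC6, all at 12.5 CPM or less in every library of both ages. IRF7, a transcription factor of the same response, went the other way, with 109, 125 and 125 CPM and then 64.8, 104 and 16.3 CPM. Unlike the matrix genes, the list kept a median of 0.69 with replicate 2 as the only 12-month library. In that library, with the main scaling, 12 of 23 lay above all 6-month libraries and 1 below. Over all mRNAs 3357 lay above and 3216 below of 15395, in the fit with its own scaling and filter. The 12 include the 9 counted as higher, which lie above by the rule. The median was 1.37 without 6-month replicate 1, 0.80 without 6-month replicate 2 and 0.86 without 12-month replicate 3. Of the 23 mRNAs, 17 were lowest in 6-month replicate 2 and 14 were highest in 12-month replicate 3. The count of 9 higher held under all 4 scalings. Log2 fold changes of OAS2, MX1 and RSAD2 were 1.66 ± 0.633, 1.55 ± 0.620 and 2.18 ± 0.691 (SE), each with an adjusted p of 0.710 in edgeR's quasi-likelihood test. In the 17 macrophage and leukocyte mRNAs 0 were non-overlapping in either direction, and their sum was 788 to 1283 CPM at 6 months and 906 to 1657 CPM at 12 months.

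Ribosomal protein genes, whose products build both ribosome subunits, showed many small differences. Of 75 rows with such symbols, 25 were non-overlapping and higher (33.3%, against 6.96% of all mRNAs) and 2 were lower (2.67%, against 5.62%), with a median log2 fold change of 0.37. The 75 summed to 16433, 14705 and 13361 CPM at 6 months and 21019.7, 19182 and 18991 CPM at 12 months, so the sums themselves did not overlap. RPS3A had 87.9, 97.9 and 58.5 CPM and then 156, 199 and 283 CPM, which is 1.38 ± 0.376 (SE) on the log2 scale. RPL15 had 155, 153 and 154 CPM and then 325, 228 and 219.7 CPM. RPL38 was lower, with 178, 213 and 197 CPM and then 115, 125 and 90.4 CPM, as was RPS10 with 243, 262 and 241 CPM and then 173, 216 and 204 CPM. The 25 include RPS19BP1, which is a binding protein and not part of the ribosome.

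The higher ribosomal rows numbered 22 to 30 under the 4 scalings, and the list's median stood 0.30 to 0.32 above the median of all mRNAs under each of them. With replicate 2 as the only 12-month library the list's median was 0.29. In that library, with the main scaling, 40 of 75 lay above all 6-month libraries and 8 below. Over all mRNAs 3357 lay above and 3216 below of 15395, in the fit with its own scaling and filter. The 40 include the 25 counted as higher, which lie above by the rule. Ribosomal protein genes have many processed copies in mammalian genomes, and how reads were split among copies is not given in the sources used here, so single rows are uncertain. In the 2-month libraries the sums were 11499, 19403 and 22656 CPM, a spread wider than the difference between 6 and 12 months.

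Signalling pathways were represented by few members. Of 32 WNT genes, 6 were higher (18.8%, against 6.96% of all mRNAs) and 2 lower (6.25%, near the 5.62% of all), and WNT5B was set apart. WLS, which escorts WNT ligands to the cell surface, had 8.80, 5.99 and 6.58 CPM and then 58.4, 11.4 and 20.7 CPM. AXIN2, a feedback target of the pathway, had 8.28, 7.24 and 9.58 CPM and then 19.8, 11.1 and 11.7 CPM. APC, a scaffold of the beta-catenin destruction complex, and PORCN, which adds lipid to WNT ligands, were higher by log2 fold changes of 0.57 and 0.98. The receptors FZD4 and FZD7 completed the higher group, and FZD3 and GSK3B were lower. With replicate 2 as the only 12-month library the WNT median was 0.08, against 0.71 with all rams.

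Of 13 hedgehog genes, the receptor PTCH1 and the co-receptor CDON were higher (15.4%, against 6.96% of all mRNAs). PTCH1 had 9.32, 7.35 and 9.12 CPM and then 24.4, 9.995 and 26.1 CPM, with replicate 2 close to the 6-month level. Both overlapped with library size only. With replicate 2 as the only 12-month library the hedgehog median log2 fold change was -0.20, against 0.89 with all rams. Of 27 genes of gonadotropin, activin and TGF-beta signalling, 0 were higher and 2 were lower (7.41%), a share near the 5.62% of all mRNAs. These were AMHR2, the receptor of anti-Müllerian hormone, with 32.7, 43.6 and 31.6 CPM and then 22.8, 23.1 and 26.7 CPM, and the signal transducer SMAD2, with 64.1, 64.3 and 72.9 CPM and then 54.3, 57.9 and 55.4 CPM. Both overlapped under upper-quartile scaling and with library size only. FSHR, the receptor of follicle-stimulating hormone on Sertoli cells, had 78.6, 36.9 and 43.4 CPM and then 23.1, 39.1 and 86.5 CPM, and overlapped.

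Of 19 immediate early genes, which react within minutes to stimuli and handling of tissue, 3 were higher (15.8%, against 6.96% of all mRNAs). DUSP1, a phosphatase of MAP kinases, had 32.3, 21.3 and 28.9 CPM and then 47.5, 44.4 and 50.2 CPM. JUNB had 5.38, 3.05 and 3.58 CPM and then 15.4, 7.09 and 8.86 CPM, and the third was CTGF. FOS, with 10.2, 1.47 and 2.54 CPM and then 22.9, 7.42 and 13.3 CPM, and EGR1 overlapped. Of 25 heat shock and chaperone genes, 3 were higher (12.0%) and 1 was lower (4%), against the same 6.96% and 5.62%. The inducible HSPA1A had 10.9, 5.65 and 9.82 CPM and then 34.2, 14.9 and 26.2 CPM, and its partner BAG3 had 18.5, 10.3 and 14.8 CPM and then 53.9, 19.0 and 35.1 CPM. BAG3 overlapped under upper-quartile scaling and with library size only. The third was the mitochondrial chaperone HSPA9, and DNAJB4 was lower with 97.5, 108 and 12.5 CPM at 12 months.

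Germ cell lists separated the 12-month rams from each other more than the ages. Of 35 meiotic genes 0 were higher and 2 lower (5.71%, near the 5.62% of all mRNAs), and of 26 acrosome genes 0 were non-overlapping in either direction. Of 15 mRNAs of the chromatin list 2 were lower (13.3%) and of 27 tail genes 3 were lower (11.1%). The 2 were SMCP and CAPZA3, which are not chromatin genes, and the chromatin genes TNP1, TNP2 and HMGB4 overlapped. All 26 acrosome mRNAs were lowest in 12-month replicate 3, as were 14 of the 15 mRNAs of the chromatin list and 26 of the 27 tail mRNAs. SMCP, a protein of the sperm mitochondrial capsule, had 859, 1386 and 856 CPM at 6 months and 721, 726 and 1.53 CPM at 12 months. TEKT5, a filament protein of the tail, had 157, 181 and 166 CPM and then 127, 145 and 0.535 CPM.

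Among meiotic genes, LDHC, the lactate dehydrogenase of germ cells, had 297, 367 and 394 CPM and then 168, 263 and 73.7 CPM. MYBL1, a regulator of genes of the pachytene stage, had 32.5, 43.5 and 47.0 CPM and then 24.7, 29.6 and 30.4 CPM, but overlapped under upper-quartile scaling and with library size only. Median log2 fold changes of the acrosome, chromatin and tail lists were -0.78, -0.86 and -0.74 with all rams and -0.23, -0.28 and -0.25 without 12-month replicate 3. With replicate 2 as the only 12-month library they were 0.17, -0.34 and -0.02, and that of the meiotic list was 0.02 in place of -0.36. Of 34 axoneme genes, RSPH1 and LRRC6 were lower (5.88%, near the 5.62% of all mRNAs). RSPH1, a radial spoke protein, had 187, 303 and 282 CPM and then 164, 145 and 78.7 CPM. Of 18 spermatogonial genes only UCHL1, a marker of spermatogonia, did not overlap (5.56%, below the 6.96% of all mRNAs). It was higher, with 39.3, 45.0 and 45.3 CPM and then 107, 47.7 and 71.0 CPM, a gap of 0.08 on the log2 scale.

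Among somatic cells of the testis, 0 of 14 Sertoli cell mRNAs were non-overlapping. Their sum was 7940, 3030 and 4359 CPM at 6 months and 2857, 5429 and 11611 CPM at 12 months, and 12 of the 14 were highest in 12-month replicate 3, the library with few late germ cell mRNAs. Of 10 endothelial mRNAs, VWF and ERG were higher (20.0%, against 6.96% of all mRNAs), and 7 were highest in 12-month replicate 1. With replicate 2 as the only 12-month library the endothelial median log2 fold change was -0.07, against 0.81 with all rams. VWF, the clotting factor carrier made by endothelium, had 36.1, 18.8 and 34.9 CPM and then 65.9, 43.4 and 71.3 CPM. Of 14 smooth muscle mRNAs, 1 was higher (7.14%, near the 6.96% of all mRNAs) and 4 were set apart. Among the 4 was ACTA2, with 239, 139 and 167 CPM and then 2562, 322 and 588 CPM. The one counted was TPM2, a tropomyosin, with 56.1, 46.4 and 53.7 CPM and then 466, 65.5 and 123 CPM. Of 8 duct genes, only ESRP1, a splicing factor of epithelia, was counted as higher (12.5%, against 6.96% of all mRNAs). It had 63.8, 10.5 and 20.2 CPM at 12 months.

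**Figure D4:**
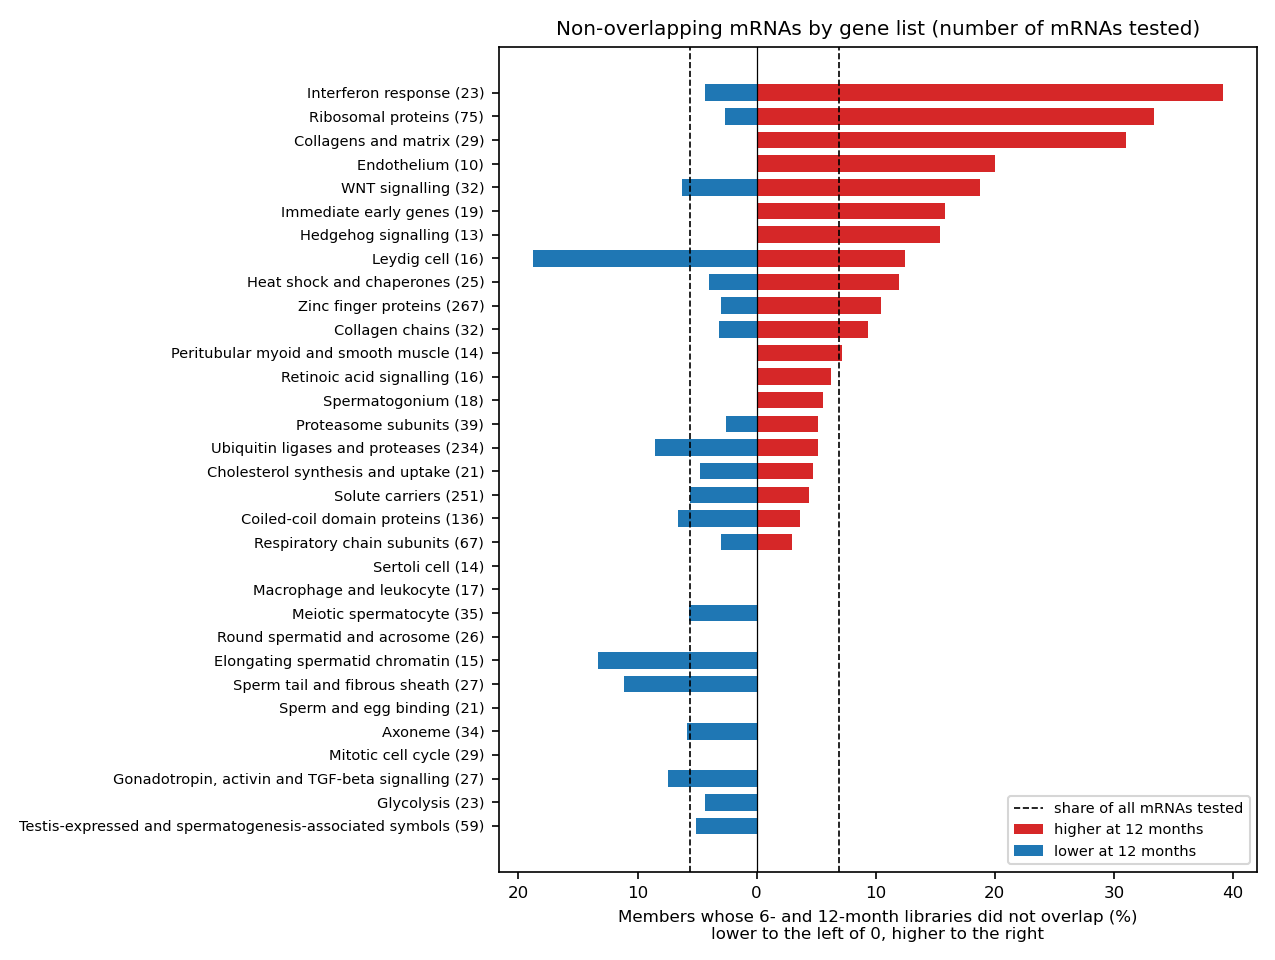
Share of each gene list (in percent, number of mRNAs tested in brackets) whose 6- and 12-month libraries did not overlap, lower at 12 months to the left of 0 and higher to the right, with dashed lines at the shares of all mRNAs tested. The interferon, ribosomal protein and matrix lists reach 39.1%, 33.3% and 31.0% on the higher side, where the line stands at 6.96%, and the Leydig cell list stands at 18.8% on the lower side, where the line stands at 5.62%.

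The 2-month libraries give the place of the non-overlapping mRNAs in rams of the other age. They shared the scaling and the filter with the other libraries, and with the 6 libraries alone 1006 mRNAs were higher and 840 lower. For the 1038 mRNAs that were higher at 12 months, 2-month replicates 2 and 3 lay at or above the 12-month levels in 830 (80.0%) and 671 (64.6%), and replicate 1 in 222 (21.4%). Replicate 1 lay at or below the 6-month levels in 642 (61.8%). For the 838 that were lower, replicates 2 and 3 lay on the 12-month side in 730 (87.1%) and 586 (69.9%), and replicate 1 on the 6-month side in 538 (64.2%). The 2-month libraries fell on different sides, and both 2-month replicate 1 and 12-month replicate 3 are the libraries whose contents stand against their labels. Their chromatin lists summed to 9209, 320 and 670 CPM, with replicate 1 near the 6-month libraries and the other two nearer to 12-month replicate 3. The part of late germ cells in this division was not tested.

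**Figure D5:**
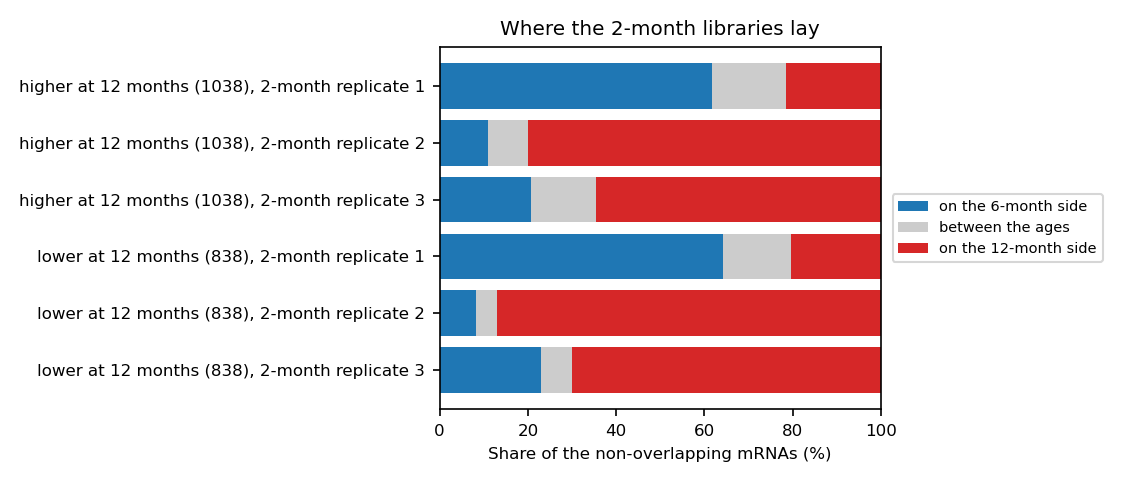
Share of the mRNAs that did not overlap between 6 and 12 months (in percent) for which each 2-month library lay on the 6-month side, between the ages or on the 12-month side. For the higher mRNAs, 2-month replicate 2 lay on the 12-month side in 80.0% and replicate 1 in 21.4%.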

How the data were processed

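Testis mRNA of 3 rams at each age was measured, with 1 library per ram. The authors deposited whole-number counts per gene, with no normalization. The build Oar_v3.1 and BWA stand in the submitters' processing notes, and the counting tool and annotation are not given in the sources used here. The authors' miRNA counts were not used here. Of 23144 rows, the 19233 of type mRNA were analysed.

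Counts were scaled by TMM and filtered by age in edgeR 4.0.16 (R 4.3.3), with 1 quasi-likelihood model of all 9 mRNA libraries giving the contrast 12 minus 6 months. Adjusted p-values are Benjamini-Hochberg values over 14921 mRNAs. A prior count of 0.5 was added for log2 CPM. Alternatives were other scalings, DESeq2 1.42.0, limma 3.58.1, no filter, 6 libraries only, the replicate number as a block and each ram left out. Python 3.11.15, pandas 2.3.3 and matplotlib 3.10.9 served for tables and plots.

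Genes were named if they had one of the 15 widest gaps in a direction at a mean of 5 CPM or more in the higher age, without LOC symbols, or one of the 4 widest in a list, or as one of the first 3 markers of a cell type. Other genes named from the lists were chosen after their values were seen. The members and the 35 lists were chosen with earlier results of these data known. Of the 19233 symbols, 15744 matched RefSeq symbols and 60 its synonyms, and no coordinates are given because the builds differ. Number of value columns without a sample: 0. No ram was sampled at more than 1 age, and p-values measure the spread between rams.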

Additional observations from a re-analysis of the deposited data

How the results depend on the processing

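With 3 rams an age, a spread this wide and levels near 3 counts for the weakest mRNAs, differences under the spread could not be detected. The number of mRNAs called was 0 in every edgeR and limma fit and 3 in DESeq2. The smallest adjusted p over these edgeR and limma fits spanned 0.252 to 1. Leaving out 1 ram at a time, mRNAs with an unadjusted p under 0.05 numbered 288 to 2329, against 1025 with all rams. They were 288 without 6-month replicate 2, 414 without 6-month replicate 3, 421 without 12-month replicate 1 and 2329 without 12-month replicate 2. The non-overlapping mRNAs then numbered 1291 to 4028 higher and 876 to 3059 lower, because fewer libraries overlap less. The most came without 12-month replicate 2. Without 6-month replicate 1 they were 2535 and 2215, without 6-month replicate 3 1745 and 1159, without 12-month replicate 1 1763 and 1682, and without 12-month replicate 3 1291 and 1234. With 12-month replicates 1 and 3 left out together, an alternative chosen after seeing the data in which the lone 12-month library is assumed to vary like the other ages, 122 mRNAs had an unadjusted p under 0.05, and 3357 lay above and 3216 below all 6-month libraries.

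The median log2 fold change of all mRNAs was 0.05 under TMM, 0.22 under upper-quartile scaling, -0.0026 under RLE and 0.32 with library size only, and list medians are read against it. The share of higher mRNAs among the non-overlapping was 55.3%, 59.5%, 49.7% and 59.1%. Of 1038 higher and 838 lower mRNAs, 793 to 937 and 555 to 764 were shared with the other scalings. The 30 mRNAs of the widest gaps did not overlap under any of the 4, nor did 84 of all 102 named non-overlapping mRNAs. Of the 102, 0 changed the sign of their log2 fold change in any alternative run. This was largely fixed by their choice, since leaving out rams from ages that do not overlap keeps the sign. Of 510 list medians recomputed for 34 lists, 468 moved by less than the spread between rams and 42 by more, and 51 medians of 21 lists changed sign, among them those of Sertoli and Leydig cells at -0.24 and -0.16 without 12-month replicate 3 (0.32 and 0.16 with all rams). With a block for the replicate number, 0 mRNAs were called and 991 had an unadjusted p under 0.05. Without the block 0 were called too, so no call could be lost. Same-numbered rams had correlations of their deviations from the age means of -0.12, 0.43 and 0.11, and differently numbered rams of -0.43 to 0.33. Not every library correlated best with its own number. With 3 rams an age these values cannot tell whether rams of the same number share more than a number.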

Other observations

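Families read from gene symbols are set beside the 6.96% higher and 5.62% lower of all mRNAs tested. Of 267 zinc finger proteins, mostly DNA-binding repressors, 28 were non-overlapping and higher at 12 months (10.5%) and 8 were lower (3.0%). ZFP90 had 10.7, 11.9 and 11.2 CPM at 6 months and 17.4, 16.9 and 20.2 CPM at 12 months, and ZFP1 had 10.9, 10.5 and 9.58 CPM and then 15.04, 18.2 and 22.4 CPM. With 12-month replicate 2 alone the median of the list was 0.0031. Of 234 ubiquitin ligases and proteases, 12 were higher (5.13%) and 20 lower (8.55%). Of 136 coiled-coil domain proteins, 5 were higher (3.68%) and 9 lower (6.62%), among them CCDC122 with 16.7, 23.9 and 23.0 CPM and then 11.0, 3.65 and 3.13 CPM. Of 59 testis-expressed and spermatogenesis-associated symbols 3 were lower (5.08%), and 49 were lowest in 12-month replicate 3. Of 251 solute carriers 11 were higher (4.38%) and 14 lower (5.58%). Collagen chains, a list that shares genes with the matrix list, had 3 higher (9.38%) and 1 lower (3.12%) of 32.

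The remaining lists had shares near or below the 6.96% higher and 5.62% lower of all mRNAs tested. Of 67 rows with respiratory chain and ATP synthase symbols, 2 were higher and 2 lower (2.99% each). The higher include NDUFAF4, which is an assembly factor and not a subunit. NDUFS4, a subunit of complex I, had 50.4, 46.7 and 51.7 CPM and then 31.3, 37.6 and 32.0 CPM. Of 39 rows with proteasome symbols 2 were higher (5.13%), among them the assembly factor PSMD9, and 1 was lower (2.56%). In 29 mitotic genes and 21 genes of sperm and egg binding 0 were non-overlapping. Of 23 glycolysis genes 1 was lower (4.35%), and of 16 retinoic acid genes 1 was higher (6.25%). Of 21 cholesterol genes 1 was higher and 1 lower (4.76% each). Only 2 blood markers were tested and both overlapped, and 0 rows of the table matched the symbol pattern for olfactory receptors.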
